A study of Arabidopsis thaliana with 18 samples.

Results

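AT2G32220 and AT5G39850 are nuclear genes of Arabidopsis thaliana for proteins of the cytosolic ribosome. AT2G32220 encodes an L27 protein of the large (60S) subunit and AT5G39850 an S9 protein of the small (40S) subunit. They were selected on measured values, as the ribosomal protein genes most responsive to giving phosphate back to starved seedlings. The exact comparison behind the choice is not recorded. It is taken here to be resupplied against starved seedlings, in which they rank 1 and 2 of the list in both genotypes. Each gene has 1 probe set, so the data are 2 of 22746 probe sets tested, 2 of 13355 genes named, and 2 of 132 measured genes on a list of 234 cytosolic ribosomal protein genes. In the TAIR10.1 annotation AT2G32220 lies on chromosome 2 from 13678910 to 13679523 and AT5G39850 on chromosome 5 from 15949910 to 15951475. Both are annotated as protein-coding, and where in the transcripts the probes bind was not analysed here.

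The signal was measured with 18 Affymetrix arrays on whole seedlings labelled 7 days old, with 3 arrays in each of 6 groups. The spx1 spx2 double mutant and the wild type Col-0 (WT) were each grown in complete medium, in medium lacking inorganic phosphate (Pi), or without Pi and then in complete medium for 4 h (resupplied). The labels call the arrays of a group biological replicates. They name no mutant alleles and no other transgene or treatment, and do not say how many seedlings a sample pooled or what was kept separate between replicates, so the p-values measure the spread between these samples. Values are RMA signals on the log2 scale. A difference of 1 is a 2-fold change, and the signals of different probe sets cannot be ranked against each other.

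A ribosome is built from ribosomal RNA and about one copy each of many small proteins, and its proteins are made in a coordinated way as growth demands more protein synthesis. In Arabidopsis each ribosomal protein is encoded by a small family of closely related genes, and members of a family can differ in when and where they are transcribed. Ribosomes hold a large part of the cell's organic phosphorus in their RNA. Ribosome production is therefore one of the known points where growth and Pi supply meet. SPX1 and SPX2 encode nuclear proteins known to hold back PHR1, the main transcription factor of Pi starvation, while Pi is ample. The family of each locus is given here from general knowledge of Arabidopsis nomenclature, since the gene table used lists these loci without a product.

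The arrays' medians lay between 6.72 and 6.91. The polyadenylated spike-in controls were low in 3 arrays. In complete medium these were replicate 2 of the mutant and replicate 3 of WT, and without Pi replicate 1 of the mutant. The dap control of the 3 averaged 5.26 to 5.57, against 7.91 to 9.38 in the other 15 arrays. Of the markers listed for seedling tissues, 2 of 4 root hair genes, none of 8 leaf mesophyll genes, none of 3 root genes and 2 of 15 genes of dividing cells have a probe set named here. Of these tissue markers only the 2 root hair expansin genes could be set beside the label, with means between 6.78 and 9.92 in every group. Root hair genes cannot tell whole seedlings from roots alone, so they do not check the label. In whole seedlings fewer cells of a type and less RNA per cell cannot be told apart.

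After 4 h of resupply both genes stood far above every other group, in both genotypes. AT2G32220 read 9.59, 9.79 and 9.83 in resupplied mutant seedlings and 9.91, 9.74 and 10.01 in resupplied WT. Without Pi it read 7.47, 7.28 and 7.39 in the mutant and 7.34, 7.38 and 7.54 in WT. In complete medium it read 8.59, 8.31 and 7.80 in the mutant and 7.62, 7.23 and 7.50 in WT. All 6 resupplied arrays were thus above all 12 others. The means ordered as WT resupplied (9.89 ± 0.13, SD, n = 3 for this and each following mean), mutant resupplied (9.74 ± 0.13), mutant complete (8.23 ± 0.40), WT complete (7.45 ± 0.20), WT without Pi (7.42 ± 0.11) and mutant without Pi (7.38 ± 0.09). The genotypes overlapped after resupply, and WT in complete medium overlapped with both groups without Pi. The mutant in complete medium overlapped with no other group, and its 3 arrays were the most spread of any group.

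AT5G39850 followed the same order of media. It read 10.09, 10.53 and 10.18 in resupplied mutant seedlings and 10.15, 10.09 and 10.16 in resupplied WT. Without Pi it read 8.07, 7.83 and 7.85 in the mutant and 7.83, 8.06 and 7.93 in WT. In complete medium it read 8.64, 8.68 and 8.11 in the mutant and 8.02, 7.81 and 8.46 in WT. The 6 resupplied arrays again lay above the other 12. The means ordered as mutant resupplied (10.27 ± 0.24, SD, n = 3 for this and each following mean), WT resupplied (10.13 ± 0.04), mutant complete (8.48 ± 0.32), WT complete (8.10 ± 0.33), WT without Pi (7.94 ± 0.12) and mutant without Pi (7.91 ± 0.13). Neighbours in this order overlapped, except that the resupplied groups stood apart from the mutant in complete medium. The highest WT array in complete medium, replicate 3, is one of the 3 with low spike-in controls.

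**Figure D1:**
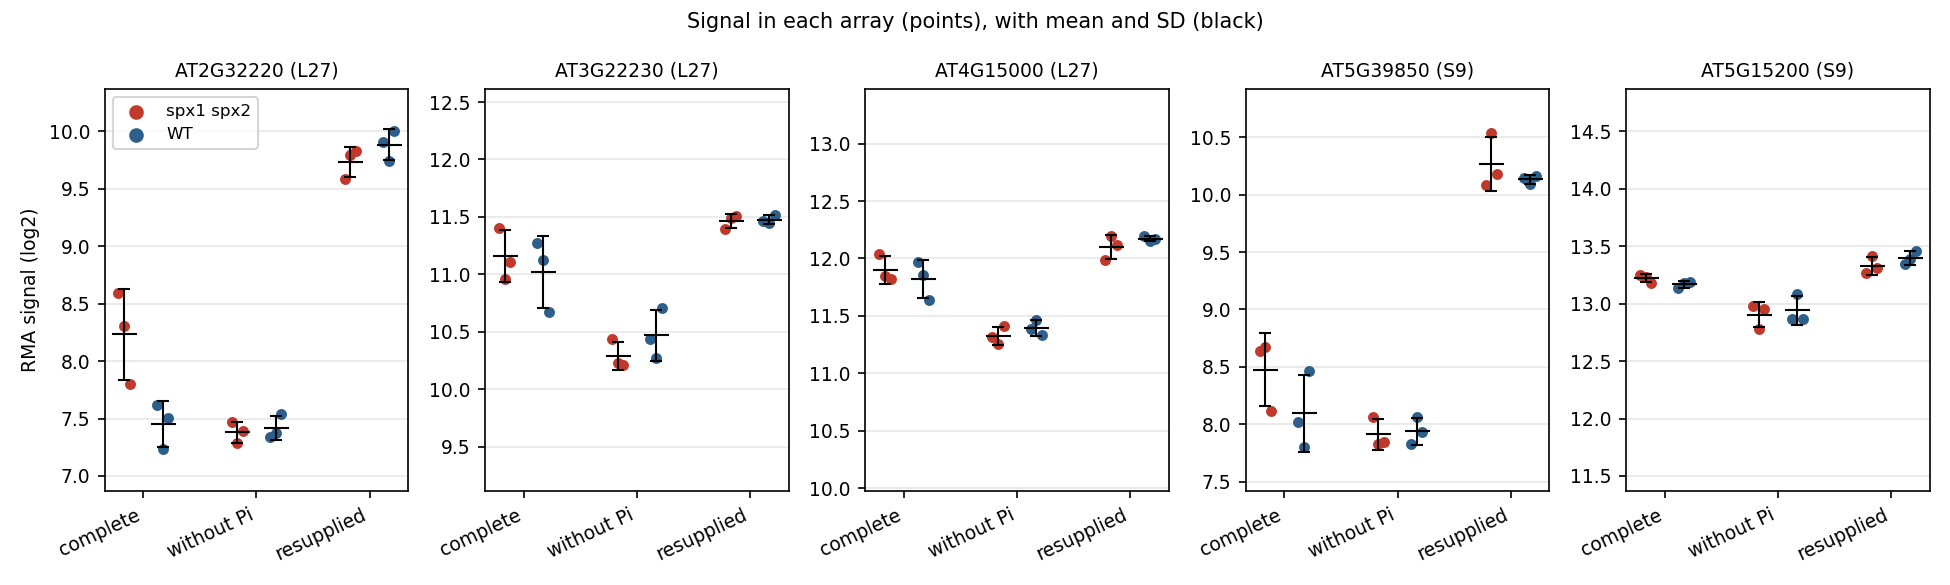
RMA signal (log2, vertical axis) of AT2G32220, AT5G39850 and the 3 other measured genes of their families in each medium (horizontal axis), with spx1 spx2 in red and WT in blue. Points are arrays, black bars are the mean ± SD of 3 arrays, and every vertical axis spans the same number of log2 units. The 6 resupplied arrays of AT2G32220 and AT5G39850 lie above all their other arrays, while the other genes of their families stay within a narrower range.

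Resupplied against starved seedlings is taken as the contrast that chose the genes, so its values are a description without a test. AT2G32220 was higher by 2.36 ± 0.16 in the mutant (5.12-fold, SE, n = 3 arrays per group) and by 2.47 ± 0.16 in WT (5.54-fold). AT5G39850 was higher by 2.35 ± 0.17 in the mutant (5.10-fold) and by 2.19 ± 0.17 in WT (4.57-fold). Over all 22746 probe sets these 4 differences ranked 75th and 77th in the mutant and 48th and 77th in WT, counted from the largest rise. The resupplied arrays were all above the arrays without Pi for both genes in both genotypes, and so they were for 27.4% of all probe sets in the mutant and 25.7% in WT.

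The other measured L27 genes, AT3G22230 and AT4G15000, and the other S9 gene, AT5G15200, rose less on resupply. This order follows from choosing the largest rises of the list, so it is a description. AT3G22230 rose by 1.18 ± 0.15 in the mutant (2.26-fold, limma adjusted p = 2.67e-06) and by 1.01 ± 0.15 in WT (adjusted p = 2.01e-05). AT4G15000 rose by 0.77 ± 0.10 in the mutant (adjusted p = 4.96e-06) and by 0.78 ± 0.10 in WT (adjusted p = 5.77e-06). AT5G15200 rose by 0.43 ± 0.09 in the mutant (adjusted p = 0.000929) and by 0.46 ± 0.09 in WT (adjusted p = 0.000577). For scale, AT5G15200 read 13.26, 13.41 and 13.31 in resupplied mutant seedlings and 13.34, 13.39 and 13.46 in resupplied WT, against 12.98, 12.78 and 12.96 without Pi in the mutant and 12.87, 13.08 and 12.87 in WT. Its probe set is near the top of the signal range, where the highest value in the table is 14.35, and whether that narrows its changes was not tested.

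Within an array, the signal of a chosen gene minus that of its relative rose after resupply. The chosen genes' probe sets read lower than those of their relatives in every group, so this rise brought the signals closer. Taking the difference in WT in complete medium as 0, AT2G32220 gained 1.84 ± 0.07 over AT3G22230 in resupplied mutant seedlings (SD, n = 3). In resupplied WT it gained 1.98 ± 0.10. Over AT4G15000 it gained 2.01 ± 0.06 in the mutant and 2.08 ± 0.12 in WT. AT5G39850 gained 2.01 ± 0.16 over AT5G15200 in the mutant and 1.81 ± 0.06 in WT. Without Pi the gains were smaller, 0.66 ± 0.08 (mutant) and 0.51 ± 0.14 (WT) for AT2G32220 over AT3G22230. For AT5G39850 over AT5G15200 they were 0.08 ± 0.11 (mutant) and 0.07 ± 0.06 (WT). These gains use resupplied and starved arrays, which chose the genes, and have no test.

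The families of L27 and S9 were among the most uneven of the ribosome. Of 45 families with at least 2 measured genes, the difference between the most and the least resupply-responsive gene was 1.93 for S9 and 1.58 for L27 in the mutant, ranks 1 and 3. In WT it was 1.74 and 1.69, again ranks 1 and 3. The family between them was S2, with 1.73 in the mutant and 1.72 in WT, whose most responsive gene is AT3G57490. The median over families was 0.48 in the mutant and 0.61 in WT. The 2 chosen genes set these values, which are therefore a description. The S9 value also rests on AT5G15200, whose probe set is near the top of the signal range. Whether that widens the S9 difference was not tested.

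Most other cytosolic ribosomal protein genes also rose on resupply. That each rose by less than the 2 genes follows from the choice. Of the 130 others, 119 rose and none fell in the mutant, with a median of 0.77, and 115 rose and none fell in WT, with a median of 0.75. Rises passed for 23.5% of all probe sets in the mutant and 18.4% in WT, falls for 19.3% in the mutant and 19% in WT, and the medians of all probe sets were -0.01 and -0.06. The 60S genes (75 of 83 in the mutant and 74 of 83 in WT) and the 40S genes (44 of 47 and 41 of 47) rose in like shares. A rise of at least 2-fold was seen in 37 of the 130 in the mutant and 33 in WT. The smallest of these rises were those of AT3G06700 in the mutant (1.01) and AT3G22230 in WT (1.01). Counted from the largest rise of all 22746 probe sets, they ranked 1208th and 1094th. The share of all probe sets at each fold cut was not counted. A rise of at least 4-fold was seen in 1 of the 130, AT3G57490, an S2 gene of the small subunit, which ranked 102nd in the mutant and 78th in WT. It rose by 2.21 ± 0.15 in the mutant (adjusted p = 1.05e-09) and by 2.19 ± 0.15 in WT (adjusted p = 1.56e-09). It lies just outside the choice, and in both genotypes the rises of AT5G39850 and AT3G57490 differ by less than 1 SE. Next in WT came AT5G59240 (S8, 1.96 ± 0.16), AT2G37600 (L36, 1.74 ± 0.13) and AT1G80750 (L7, 1.65 ± 0.15). In the mutant AT5G67510 (L26, 1.73 ± 0.13), AT2G37600 (1.66 ± 0.13) and AT1G15250 (L37, 1.65 ± 0.13) followed AT3G57490.

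**Figure D2:**
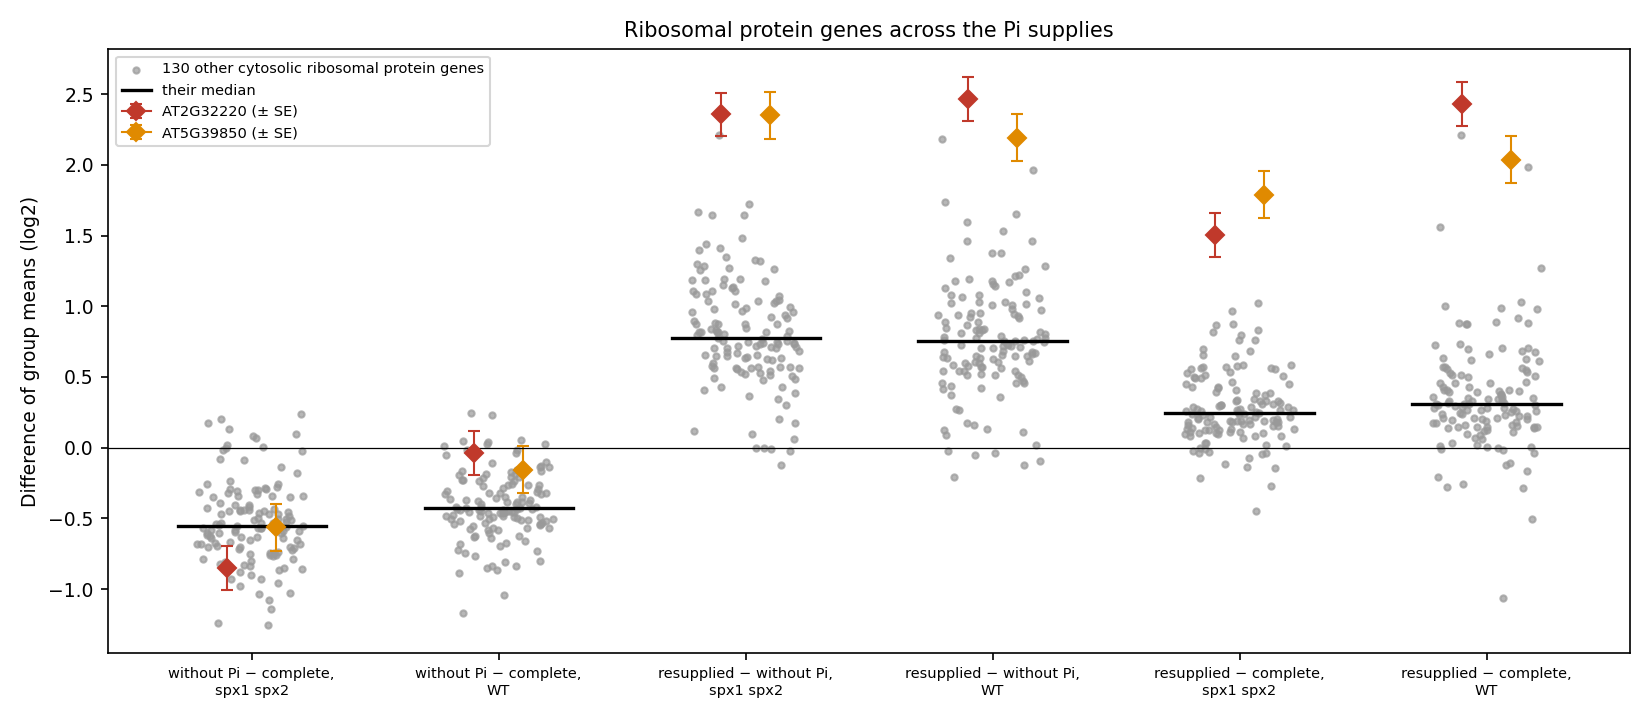
Difference of group means (log2, vertical axis) of cytosolic ribosomal protein genes in 6 comparisons of Pi supply. Grey points are the 130 other genes, the black line is their median, and coloured diamonds are AT2G32220 and AT5G39850 ± SE. After resupply the coloured genes lie between 2.19 and 2.47 above the level without Pi, against medians of 0.77 in the mutant and 0.75 in WT. That they lie above the other genes there follows from the choice.

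Starved mutant seedlings had less signal from both genes than mutant seedlings in complete medium, while starved WT seedlings were close to WT in complete medium. In the mutant AT2G32220 was lower without Pi than in complete medium by a difference of -0.85 ± 0.16 and AT5G39850 by -0.56 ± 0.17 (SE, n = 3), with no overlap of the arrays for either. The arrays without Pi were all below those in complete medium for 28.6% of all probe sets in the mutant and 31% in WT. In WT the differences were -0.04 ± 0.16 for AT2G32220 and -0.16 ± 0.17 for AT5G39850, and the arrays overlapped. Their 95% intervals in WT were -0.36 to 0.29 for AT2G32220 and -0.51 to 0.19 for AT5G39850. These comparisons share the starved arrays with the contrast taken as the one that chose the genes, so they have no test. They also subtract the arrays in complete medium that give the genotype difference there, so they are not independent of it. The difference between the genotypes in the starvation values was not tested.

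The relatives fell on starvation in both genotypes. AT3G22230 fell by 0.87 ± 0.15 in the mutant (SE, adjusted p = 7.82e-05) and by 0.55 ± 0.15 in WT (adjusted p = 0.00428). AT4G15000 fell by 0.58 ± 0.10 in the mutant (adjusted p = 0.000127) and by 0.43 ± 0.10 in WT (adjusted p = 0.00165). AT5G15200 fell by 0.32 ± 0.09 in the mutant (adjusted p = 0.00875) and by 0.23 ± 0.09 in WT (adjusted p = 0.0489). Its call in WT was lost in 9 of 12 alternative fits, with adjusted p up to 0.16, and its call in the mutant in 3 of 12.

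Across the list, 107 of the 130 other genes fell and 1 rose in the mutant, with a median of -0.55, and 92 fell and 1 rose in WT, with a median of -0.43. Falls passed for 26.3% of all probe sets in the mutant and 28.1% in WT, and rises for 17.7% in the mutant and 20.4% in WT. The 1 that rose in each genotype was AT1G74270 (L35a, 0.24 ± 0.10 in both), named after its values were seen. With each array centred on its median, 97 fell in the mutant and 96 in WT. The largest falls in WT were those of AT2G37600 (L36, -1.17 ± 0.13), AT3G28500 (an acidic P2 protein of the stalk, -1.04 ± 0.14), AT4G13170 (L13a, -0.88 ± 0.12) and AT4G29410 (L28, -0.87 ± 0.10). In the mutant they were those of AT1G80750 (L7, -1.26 ± 0.15), AT3G57490 (S2, -1.24 ± 0.15), AT4G26230 (L31, -1.14 ± 0.11) and AT2G37600 (-1.08 ± 0.13). In WT the starvation differences of AT3G57490 (0.02 ± 0.15, adjusted p = 0.911) and AT5G59240 (0.02 ± 0.16, adjusted p = 0.922) did not pass. Markers of other cells moved with starvation too. AUR1 and AUR2, Aurora kinase genes of dividing cells, fell by 0.32 ± 0.11 and 0.67 ± 0.12 in the mutant and by 0.61 ± 0.11 and 0.53 ± 0.12 in WT (adjusted p of 0.0229 or less). The root hair genes EXPA7 and EXPA18 differed by 0.31 ± 0.20 and 0.30 ± 0.22 in the mutant (adjusted p = 0.237 and 0.285) and rose by 1.01 ± 0.20 and 0.96 ± 0.22 in WT (adjusted p of 0.00104 or less). Their part in the starvation values was not tested.

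In complete medium the genotypes were tested, since a choice on resupplied against starved seedlings does not use these 6 arrays. Had the choice also used complete medium, these p-values would not be independent of it. AT2G32220 was higher in the mutant by 0.78 ± 0.16 (1.72-fold, SE, n = 3, limma adjusted p = 0.0014), with every mutant array above every WT array. AT5G39850 was higher by 0.38 ± 0.17 (1.30-fold), which did not pass (adjusted p = 0.123), with a 95% interval of 0.03 to 0.73 and overlapping arrays. Of all probe sets 10.1% were called higher and 8.15% lower, and the arrays of 12.5% did not overlap in the direction of AT2G32220. For AT2G32220 the call was lost in a fit to these 2 groups alone (adjusted p = 0.0539), and it was kept without the low spike-in arrays (adjusted p = 0.0147). For AT5G39850 the difference was 0.56 without WT replicate 3 (adjusted p = 0.0204) and 0.56 without mutant replicate 3 (adjusted p = 0.0188), but without all 3 low spike-in arrays it was 0.46 and did not pass (adjusted p = 0.0729).

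The relatives did not pass in this comparison. AT3G22230 differed by 0.14 ± 0.15 (95% interval -0.17 to 0.45, limma adjusted p = 0.559), AT4G15000 by 0.08 ± 0.10 (-0.14 to 0.29, adjusted p = 0.64) and AT5G15200 by 0.05 ± 0.09 (-0.14 to 0.25, adjusted p = 0.741). Within an array, AT2G32220 minus AT4G15000 was higher in the mutant by 0.70 ± 0.22 (exact two-sided permutation p = 0.1). AT2G32220 minus AT3G22230 was higher by 0.64 ± 0.29 (exact permutation p = 0.2), and AT5G39850 minus AT5G15200 by 0.33 ± 0.25 (exact permutation p = 0.2). With 3 arrays against 3 the smallest p possible is 0.1, so none of these 3 comparisons could pass.

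Among the 130 other ribosomal protein genes 6 were higher and 2 lower in the mutant in complete medium, shares of 4.62% and 1.54%, both below those of all probe sets. The 6 were AT3G57490 (S2, 1.06 ± 0.15, adjusted p = 4.06e-05), AT5G59240 (S8, 0.93 ± 0.16, adjusted p = 0.000491), AT4G30800 (S11, 0.67 ± 0.14, adjusted p = 0.00179), AT1G23410 (S27a, 0.44 ± 0.15), AT3G02190 (L39, 0.38 ± 0.11) and AT1G07070 (L35a, 0.32 ± 0.10). The 2 lower were AT1G36240 (L30, -0.47 ± 0.14) and AT2G47570 (L18, -0.38 ± 0.12), whose group means of 4.06 and 3.68 in the mutant and 4.53 and 4.07 in WT are near or below the lowest lower quartile of the arrays, 4.40. AT1G23410, AT3G02190, AT1G07070, AT1G36240 and AT2G47570 were named after their values were seen. AT2G32220 ranked 3rd of the 132 and AT5G39850 8th. With each array centred the split was 3 higher and 3 lower, and over all probe sets the share of calls that were higher moved to 41.7% centred, against 55.3% as deposited. The count of 8 became 14 without mutant replicate 3, whose AT2G32220 and AT5G39850 values are the lowest of its group, and 3 without mutant replicate 1.

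**Figure D3:**
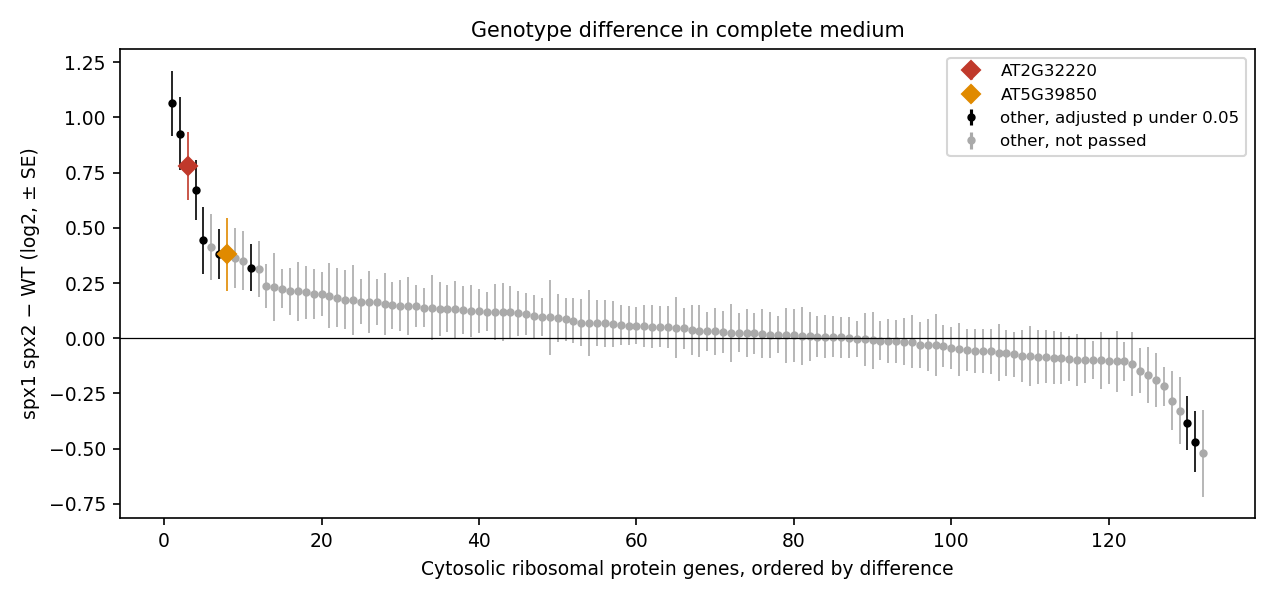
Difference between spx1 spx2 and WT in complete medium (log2, vertical axis, ± SE) for the 132 cytosolic ribosomal protein genes in order of the difference (horizontal axis). Diamonds are AT2G32220 and AT5G39850, black points are other genes that passed and grey points those that did not. AT2G32220 stands 3rd at 0.78 and AT5G39850 8th at 0.38, while the median of the other 130 is 0.04.

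Resupplied seedlings were also compared with seedlings that were never starved. AT2G32220 was higher after resupply by 1.50 ± 0.16 in the mutant (2.84-fold) and by 2.43 ± 0.16 in WT (5.40-fold), and AT5G39850 by 1.79 ± 0.17 in the mutant (3.45-fold) and 2.04 ± 0.17 in WT (4.10-fold). The arrays did not overlap for either gene in either genotype, as for 24.7% of all probe sets in the mutant and 26.4% in WT in this direction. The resupplied arrays entered the choice of the genes, so no test is given. The relatives ended closer to their level in complete medium. AT3G22230 differed by 0.31 ± 0.15 in the mutant (adjusted p = 0.105) and rose by 0.46 ± 0.15 in WT (adjusted p = 0.0137), AT4G15000 differed by 0.20 ± 0.10 (adjusted p = 0.133) and rose by 0.35 ± 0.10 in WT (adjusted p = 0.00745), and AT5G15200 differed by 0.11 ± 0.09 (adjusted p = 0.387) and rose by 0.23 ± 0.09 in WT (adjusted p = 0.0437). In WT the call for AT5G15200 was lost in 10 of 12 alternative fits, and that for AT3G22230 in 2 of 12, both of which leave out WT in complete medium replicate 3 (0.28, adjusted p = 0.0999 without that array alone).

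Over the other 130 genes, 54 were higher after resupply than in complete medium and 1 lower in the mutant, with a median of 0.24, and 77 higher and 3 lower in WT, with a median of 0.31. Of all probe sets 20.5% were called higher and 21.4% lower in the mutant, and 23.8% higher and 30.4% lower in WT. With each array centred 61 of the 130 were higher in the mutant and 59 in WT. AT3G28500 (P2) was lower in both genotypes (-0.44 ± 0.14 in the mutant, -1.07 ± 0.14 in WT), and the other two lower in WT were AT2G16360 (S25, 4.11 resupplied and 4.62 in complete medium) and AT5G24510 (P1, 3.29 resupplied and 3.55 in complete medium), both near or below the lowest lower quartile of the arrays and named after their values were seen. Large differences were common in this comparison. Of all 22746 probe sets, AT2G32220 in the mutant (1.50) ranked 432nd from the largest rise and AT5G39850 in WT (2.04) ranked 553rd. The share of all probe sets at least 2-fold higher was not counted, so the following counts have no background. At least 2-fold higher were 1 of the 130 in the mutant, AT5G15520 (S19, 1.02 ± 0.13), and 6 in WT. Those 6 were AT3G57490 (2.21 ± 0.15 in WT, 0.97 ± 0.15 in the mutant), AT5G59240 (1.98 ± 0.16 in WT, 0.83 ± 0.16 in the mutant), AT4G30800 (1.56 ± 0.14 in WT, 0.65 ± 0.14 in the mutant), AT1G23410 (S27a), AT1G02830 (L22) and AT4G25890 (an acidic P3 protein). AT1G02830 and AT4G25890 were named after their values were seen. The means of AT1G02830 in complete medium, 3.58 in the mutant and 3.66 in WT, are below the lowest lower quartile of the arrays, so its fold is over a dim signal. The WT values here and the genotype differences in complete medium subtract the same WT arrays, so the 2 comparisons are not independent.

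Between the genotypes the 2 genes were close without Pi and after resupply. Without Pi AT2G32220 differed by -0.04 ± 0.16 (95% interval -0.36 to 0.29) and AT5G39850 by -0.03 ± 0.17 (-0.37 to 0.32). After resupply AT2G32220 differed by -0.15 ± 0.16 (-0.47 to 0.18) and AT5G39850 by 0.13 ± 0.17 (-0.21 to 0.48). All 4 pairs of groups overlapped. Arrays of the mutant were all above or all below those of WT for 10.2% and 11.7% of all probe sets without Pi, and for 28.4% and 21.2% after resupply. At an unadjusted limma p of 0.05 without Pi, 7 of the 130 other genes passed, as did 3156 of all 22746 probe sets. After adjustment none of the 130 passed, where 0.831% of all probe sets did. After resupply 2 were higher and 4 lower in the mutant, beside 11.4% and 11.7% of all probe sets, led by AT1G80750 (L7, -0.96 ± 0.15, adjusted p = 0.000117). The others were higher for AT5G40040 (P2) and AT1G74270 (L35a) and lower for AT2G19740 (L31), AT5G07090 (S4) and AT1G18540 (L6), all named after their values were seen. With each array centred 2 were higher and 1 lower.

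The genes whose log2 signals were most like each of the 2 over the 18 arrays included each other, with a Pearson correlation of 0.98. For AT2G32220 the 5 most alike of 13354 named genes were AT3G44590, an acidic P2 protein gene (0.99), AT4G30800, AT5G59240, AT5G02050 and AT5G39850 (each 0.98). For AT5G39850 they were AT3G44590 (0.99), AT3G55690, AT3G53940, AT1G50400 and AT2G32220 (each 0.98). AT3G44590 was thus nearest to both, though with a smaller range. Its resupply rise was 1.11 in the mutant and 1.03 in WT. AT1G50400 had one as large as those of the 2 genes, 2.66 in the mutant and 2.18 in WT. Its means without Pi, 4.86 in the mutant and 4.82 in WT, are near the lowest lower quartile of the arrays, 4.40. Within the ribosomal list AT5G15520 (S19, 0.975) was the third nearest to AT5G39850. The other genes of the same families ranked far lower in the list of 131. AT4G15000 and AT3G22230 stood 55th (0.84) and 66th (0.82) for AT2G32220, and AT5G15200 stood 57th (0.83) for AT5G39850. The arrays share the media and the joint normalization, so these correlations include the differences between the group means. Both genes were chosen for their rise in the resupplied arrays, which enter these correlations. Their likeness to each other and the lower ranks of their relatives are therefore a description. Over the 6 group means, none of the 5 genes for AT2G32220 and 3 of the 5 for AT5G39850 stayed among the 5 nearest, while the correlations stayed at 0.99 or above.

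**Figure D4:**
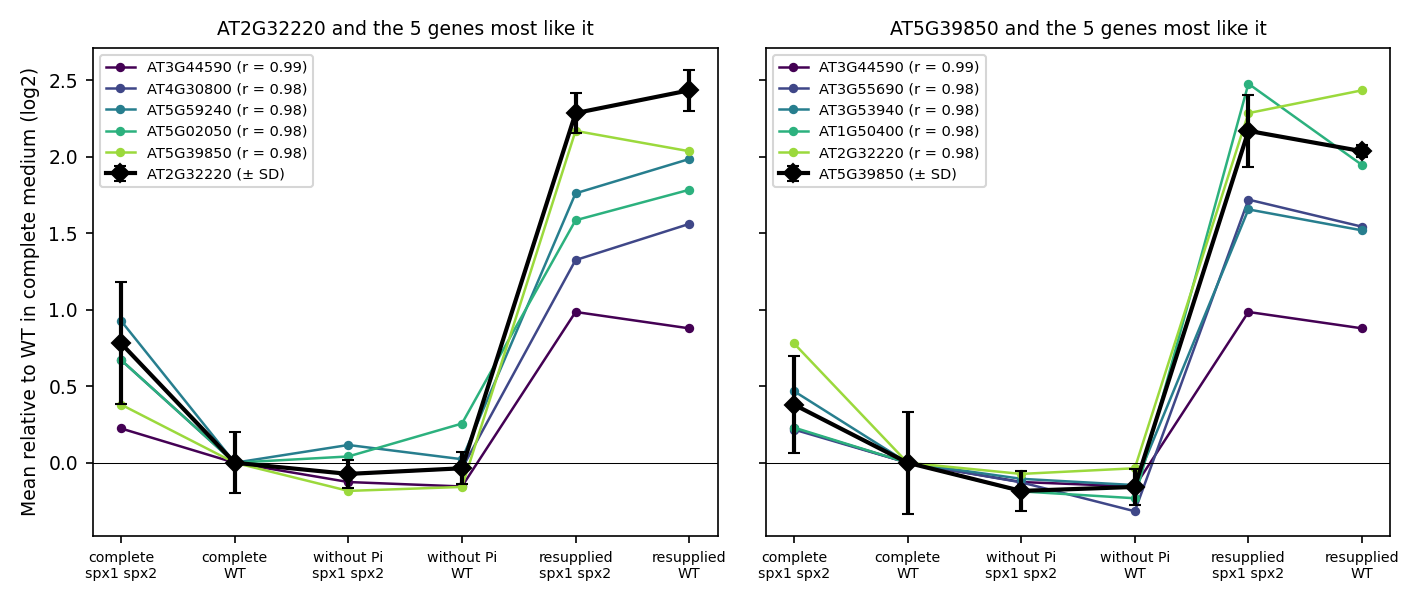
Group means relative to WT in complete medium (log2, vertical axis) over the 6 groups (horizontal axis) for AT2G32220 (left) and AT5G39850 (right) in black ± SD, with the 5 most correlated named genes in colour and their Pearson r over 18 arrays. Every profile lies closer to 0 without Pi than after resupply, and AT3G44590 has the smallest rise of those drawn (1.11 in the mutant and 1.03 in WT).

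Markers of other cells moved with resupply as follows. AUR1 and AUR2, the 2 measured genes of dividing cells, fell by 0.75 ± 0.11 and 0.48 ± 0.12 in the mutant and by 0.45 ± 0.11 and 0.47 ± 0.12 in WT (adjusted p of 0.00409 or less). Of the root hair expansin genes, EXPA18 rose by 1.98 ± 0.22 (adjusted p = 5.3e-07) and EXPA7 by 1.91 ± 0.20 (adjusted p = 3.51e-07) in the mutant. In WT EXPA18 rose by 0.71 ± 0.22 (adjusted p = 0.0134) and EXPA7 differed by 0.46 ± 0.20 (adjusted p = 0.0871). The resupplied WT arrays also had lower dap spike-in signals (7.91 to 8.33) than the resupplied mutant arrays (8.61 to 8.69), and lower than the WT arrays without Pi (8.89 to 9.05). The part of these markers and controls in the values of AT2G32220 and AT5G39850 was not tested.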

How the data were processed

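The deposited values are RMA summaries on the log2 scale, 1 per probe set and array, made by the authors per the submitters' processing notes. No source used here names the software or the annotation behind the probe sets. The log base was inferred from the range, 2.29 to 14.3. Of 22810 probe sets 64 controls were left out. The probe table, matched to RefSeq (13436 of 13513 probe sets with a single gene), named 13355 genes, and the probe set with the highest mean stood for a gene. One limma 3.58.1 model (R 4.3.3) of 6 group means was fitted to all 18 arrays (12 residual and 6.40 prior degrees of freedom), with Benjamini-Hochberg adjustment over 22746 probe sets at 0.05. The procedure was tested on simulated data. SE and 95% intervals come from this fit. The permutation tests used scipy 1.17.1.

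The 2 genes and the lists were chosen with earlier results of these data known. The list was written by locus, since the gene table gives no products. The naming rule took the 2 genes, their families, the 5 genes most like each over arrays and 3 within the list, and the 4 list genes with the largest called change on starvation and on resupply. Other genes were named after their values were seen, as said beside them. Alternatives were the replicate number as a block, centring, the 2 groups alone, a filter on dim probe sets, array weights, and leaving out low spike-in arrays or single replicates. No 2 arrays were identical. The deviations of same-numbered arrays from their group means had correlations from -0.474 to 0.232, with a median of -0.007 and 12 of 45 above 0.1. Whether arrays with different numbers deviated together was not tested.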

Additional observations from a re-analysis of the deposited data

How the results depend on the processing

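Of 216 alternative values of AT2G32220 and AT5G39850 over the 9 comparisons, 211 kept their side of the threshold or moved by less than the spread between arrays, and none reversed. A sign change counted as reversed only for a tested value that passed or a difference larger than that spread. Some smaller differences did change sign. These were both genes on starvation in WT (up to 0.05 for AT2G32220 and 0.02 for AT5G39850) and both between the genotypes without Pi (up to 0.03 and 0.04). After resupply the genotype difference of AT5G39850 also did (down to -0.001). In complete medium the genotype difference of AT2G32220 kept its value of 0.78 in the 2 groups alone but missed the threshold (adjusted p = 0.0539). It ranged from 0.602 to 0.995 with 1 array left out, and that of AT5G39850 from 0.23 to 0.56. Leaving out 1 array gave -1.07 to -0.67 for AT2G32220 on starvation in the mutant and 1.29 to 1.68 for its resupplied against complete difference in the mutant. With a replicate block, AT2G32220 in complete medium had an adjusted p of 0.00246 and AT5G39850 of 0.156, and the block changed no call of these genes. Of 117 counts over the ribosomal list 102 stayed within 1.5 times. In complete medium the count of 8 became 4 with array weights, 5 without the low spike-in arrays, 2 in the 2 groups alone and 3 to 14 with 1 array left out. Without Pi it became 1 with array weights. After resupply the count of 6 became 3 centred, 21 with array weights, 12 without the low spike-in arrays, 19 in the 2 groups alone and 2 to 5 with 1 array left out. Over all probe sets the genotypes differed at 4146 in complete medium (1525 in the 2 groups alone, 2370 without mutant replicate 1), at 189 without Pi (125 with the replicate block, 667 with array weights, 49 to 155 with 1 array left out) and at 5249 after resupply (9266 with array weights, 8094 in the 2 groups alone, 3311 to 5339 with 1 array left out). The share of calls that were higher without Pi was 40.7%, and 62.8% centred. The cause of these changes was not tested. The alternative fits for the other L27 and S9 genes were added after seeing the data. The lowest group mean of either gene, 7.38, is above the lowest lower quartile of the arrays, 4.40. The precision is limited by 3 arrays per group.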

Other observations

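Nucleolar and ribosome assembly genes, of which 16 of 35 listed have a probe set named here, rose on resupply in 15 of 16 cases in the mutant (median 1.19) and 16 of 16 in WT (median 1.65), where 23.5% (mutant) and 18.4% (WT) of all probe sets rose. In complete medium 4 of the 16 were higher in the mutant, as were 10.1% of all probe sets, led by AT3G15460, chosen after its values were seen (0.76 ± 0.14, limma adjusted p = 0.000822), and after resupply 1 was higher and 11 were lower (median -0.54), against 11.4% and 11.7% of all probe sets. The AT2G32220 and AT5G39850 differences after resupply were -0.15 and 0.13.

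Nuclear genes for chloroplast ribosomal proteins, 9 of 39 measured, fell in 9 of 9 cases on starvation in the mutant (median -1.03) and in WT (median -1.58), where 26.3% (mutant) and 28.1% (WT) of all probe sets fell. On resupply none rose and 1 fell in the mutant (median -0.09), and 1 rose and none fell in WT (median 0.17). Of all probe sets 23.5% rose and 19.3% fell in the mutant, and 18.4% rose and 19% fell in WT. After resupply 9 of 9 were lower than in complete medium in each genotype (medians -1.19 in the mutant and -1.43 in WT), as were 21.4% of all probe sets in the mutant and 30.4% in WT.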
